A study of Mus musculus with 6 samples.

Results

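The transcripts described here encode AP-1, a transcription factor assembled from subunits of the Jun, Fos and ATF families. The genes *Jun*, *Junb*, *Jund*, *Fos*, *Fosb*, *Fosl1*, *Fosl2*, *Atf3*, *Batf3* and *Jdp2* were taken by name from the table of read counts per gene, which gave 10 of 43346 genes. RNA-seq of polyadenylated RNA measured them in primary MAFs, that is mouse adult fibroblasts, which came from ear tissue of C57BL6/J mice that were adult and female. The 3 control samples were sham irradiated, and the 3 senescent samples were exposed to 20 Gy of X-rays and cultured for another 21 days. Both groups grew at 3% oxygen in DMEM with 10% serum, and both were given 100 nM dexamethasone, a glucocorticoid, for 2 h and collected 12 h later. All values therefore describe cells after a glucocorticoid pulse, at 1 time point. The sources used here do not say whether the replicates came from separate animals or cultures, so p-values measure the spread between these samples, which may be technical.

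AP-1 subunits are bZIP proteins: a basic region contacts DNA and a leucine zipper joins 2 of them into a dimer. Jun proteins pair with each other or with Fos and ATF proteins, whereas Fos proteins need a Jun partner, and the dimers bind the TRE (TGACTCA) or the closely related CRE (TGACGTCA). In fibroblasts, *Fos*, *Fosb*, *Jun* and *Junb* are classic immediate early genes, which serum and stress switch on within minutes through MAP kinases, while *Fosl1* and *Fosl2* transcripts last longer. *Atf3* is a stress-induced member, and *Jdp2* and *Batf3* encode small bZIP proteins without the activation domains of Jun or Fos.

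Of the 10 genes, 9 had enough reads to be tested. *Atf3*, *Fosl1*, *Jun*, *Fosb* and *Fosl2* were higher in senescent MAFs, *Jdp2*, *Fos* and *Jund* were lower, *Junb* did not pass the test, and *Batf3* was close to the limit of detection. The group therefore did not move as 1 block: the transcript with the largest change was *Atf3*, 14.5-fold higher, and the most abundant in control MAFs was *Fosl2*, 1.46-fold higher in senescent MAFs. Over all 17589 tested genes 36.2% were higher and 34.1% lower, so such a split is not particular to these genes. In every senescent library *Fosl1* held a larger share of the Fos family, and *Fosl2* and *Fos* a smaller one, than in any control library. *Jun* held a larger share of the Jun family, and *Junb* and *Jund* a smaller one.

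The sequences just upstream of 3 start sites are shown because their genes carry these results and hold matches to motifs bound by bZIP proteins. They come from the RefSeq promoter table for GRCm38.p6 (the assembly named mm10), are written 5′ to 3′ on the strand of the gene and end at the base before the annotated start. Capitals mark exact matches. In the *Jun* promoter (chr4:95052223-95052392, minus strand) they mark TTACCTCA and TGACATCA, the variant AP-1 sites long known from this promoter. In the *Atf3* promoter (chr1:191183334-191183453, minus strand) they mark ACGTCA, which is TGACGT read on the other strand, the first 6 letters of the CRE. In the *Fos* promoter (chr12:85473770-85473889, plus strand) they mark the same TGACGT and a TATAAA.
Jun: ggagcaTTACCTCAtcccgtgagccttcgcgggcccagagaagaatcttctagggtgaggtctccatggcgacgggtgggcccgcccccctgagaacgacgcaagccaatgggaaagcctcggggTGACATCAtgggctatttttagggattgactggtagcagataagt
Atf3: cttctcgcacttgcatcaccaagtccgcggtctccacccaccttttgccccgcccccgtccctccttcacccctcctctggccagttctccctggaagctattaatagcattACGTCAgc
Fos: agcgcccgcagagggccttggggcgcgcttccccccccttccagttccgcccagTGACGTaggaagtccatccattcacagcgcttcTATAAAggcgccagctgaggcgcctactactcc

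The table gave 11 windows for 9 of the 10 genes, 3 of them for *Jdp2*, each with 250 bases before and 50 after a start site. *Fosl1* was not among them. Letters were matched exactly and on both strands. The variant sites of the *Jun* promoter lay at positions -164 to -157 and -45 to -38 from the start, and 4.47% of all 32851 windows in the table held at least 1 such site (TGACATCA or TTACCTCA). No window of these genes held a TRE (TGACTCA or TGAGTCA) or a whole CRE, which were found in 5.2% and 1.79% of all windows. None held a CArG box (1.63%), the site of the serum response factor. Sites more than 250 bases upstream were not searched. In the GENCODE M21 annotation, all 250 upstream bases of the *Fosl2* window and 163 of the *Batf3* window lie in exons of the same gene. Other windows had at most 78 such bases. The start used for *Jund* (70697739) lies upstream of its GENCODE M21 start (70698949). The start used for *Atf3* (191183333) lies inside the gene, downstream of its outermost GENCODE M21 start (191218039). The E-box CACGTG, the site of the circadian CLOCK-BMAL1 dimer, occurred in the *Batf3* window alone, at -247 to -242, against 7.15% of all windows. TATAAA lay at -33 to -28 in *Fos* and at positions 1 to 6 after the start in *Junb*, against 13.6% of all windows. GENCODE M21 puts the start of *Junb* 30 bases further downstream, and this TATAAA lies upstream of that start. The 6 letters TGACGT, a search added after the windows had been read and overlapping the CRE, were in *Fos* at -66 to -61, in *Atf3* at -8 to -3 and in 1 window of *Jdp2* at -114 to -109, against 7.51% of all windows. These matches are descriptions of letters in a window and not of bound sites.

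Total counts were between 50288454 and 82229553 per library, and levels are CPM, counts relative to the size of the library, scaled by edgeR's TMM factors, which were 0.968 to 1.03. Across the 17589 genes tested by edgeR's quasi-likelihood test, 70.3% differed between the groups at an adjusted p under 0.05, with 36.2% higher and 34.1% lower in senescent MAFs, so 5 higher and 3 lower of 9 AP-1 genes has to be read against a background in which most genes differ. The 3 control and 3 senescent values did not overlap for 75.3% of tested genes, and for 8 of the 9 AP-1 genes. With a fold change over 2 and an unadjusted p under 0.05, 30.1% of tested genes passed, and 3 of the 9 AP-1 genes did: *Atf3*, *Fosl1* and *Jdp2*. The median log2 fold change was 0.55 for the 9 genes and 0.0085 for all tested genes. The labels were checked by *Mki67*, a proliferation marker, which was 589 ± 17.3 CPM in control and 9.60 ± 1.48 CPM in senescent MAFs (SD, n = 3), and by the cell cycle inhibitor *Cdkn1a* at 123 ± 2.01 and 619 ± 16.3 CPM. In bulk RNA, fewer cells with a transcript and less transcript per cell cannot be told apart.

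**Figure D1:**
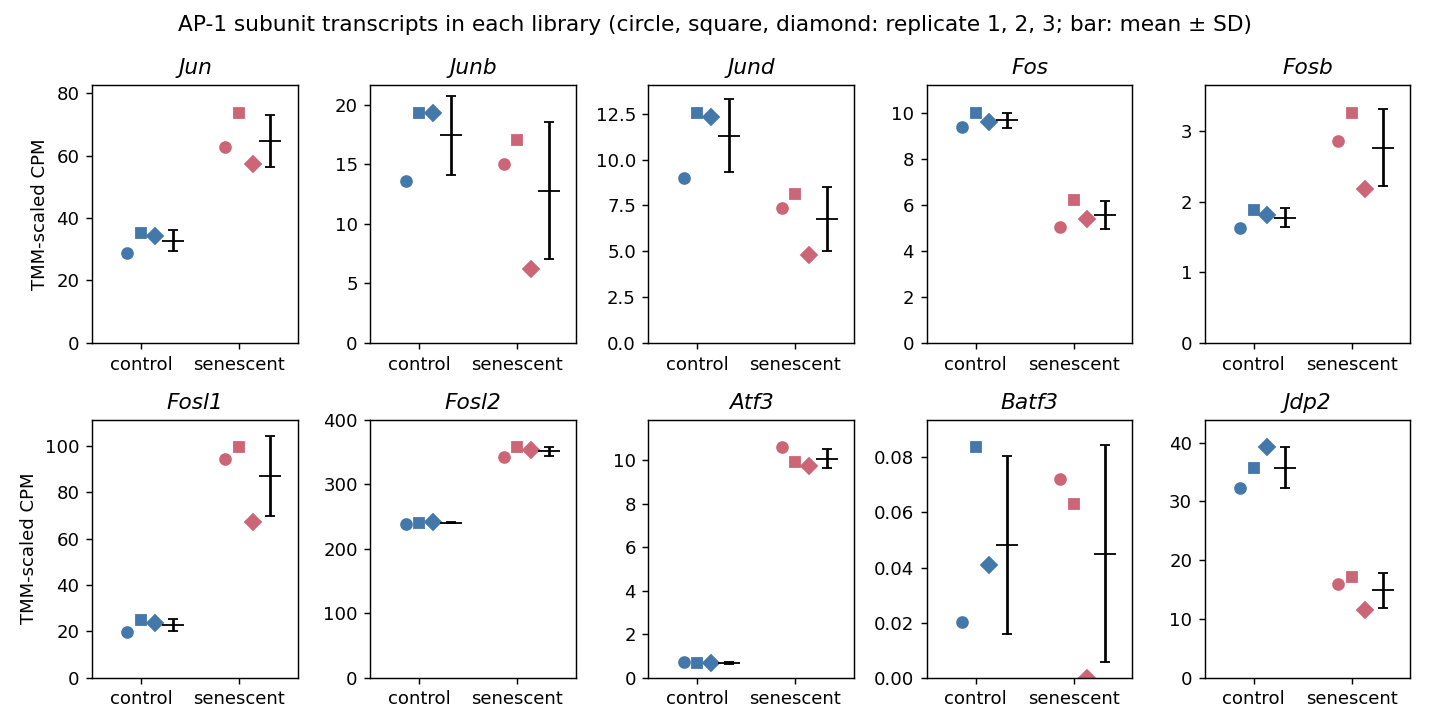
TMM-scaled CPM of each AP-1 gene (y axis, from 0, its own scale for each gene) in the 3 control (blue) and 3 senescent (red) libraries, with symbols for replicates 1 to 3 and bars for the mean ± SD. The groups are apart for 8 genes and overlap for *Junb* and *Batf3*. *Atf3* was 0.654 to 0.742 CPM in control and 9.74 to 10.6 CPM in senescent libraries.

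*Jun*, *Junb* and *Jund* encode the Jun proteins, the obligate partners in AP-1. *Jun* (ENSMUSG00000052684, chr4:95049034-95052222, minus strand, mm10, a single exon) is the strongest activator among them. It was 28.8, 35.1 and 34.2 CPM in control replicates 1 to 3 and 62.8, 73.7 and 57.3 CPM in senescent replicates 1 to 3. Every senescent library was above every control library, and the log2 fold change was 0.98 (SE 0.11, edgeR adjusted p = 0.000129), a 1.97-fold higher level that lies just under the 2-fold limit.

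*Junb* (ENSMUSG00000052837, chr8:84976909-84978748, minus strand) encodes a weaker activator that often opposes c-Jun. Its control values were 13.6, 19.3 and 19.3 CPM, and its senescent values were 15.0, 17.1 and 6.24 CPM. The groups overlapped, with senescent replicates 1 and 2 inside the control range and replicate 3 far below it. The log2 fold change of -0.45 (SE 0.34) did not pass the test (edgeR adjusted p = 0.259). The coefficient of variation of *Junb* was 18.9% in control and 45.0% in senescent MAFs, the highest of the 9 tested genes in both groups.

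*Jund* (ENSMUSG00000071076, chr8:70697739-70700616, plus strand) encodes the member that is usually expressed at a steady level and restrains proliferation. It was 9.02, 12.6 and 12.3 CPM in control and 7.34, 8.15 and 4.78 CPM in senescent MAFs. The groups did not overlap, but the lowest control and the highest senescent library were close. *Jund* fell by 0.75 on the log2 scale (SE 0.21, edgeR adjusted p = 0.0136), and the adjusted p was 0.0507 without control replicate 2, whose *Jund* level was the highest.

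The low values of *Junb* and *Jund* fell in the libraries where GC-rich genes in general were low. *Jund* and *Junb* are the most GC-rich of the 10 genes, by the longest GENCODE M21 transcript of each gene. They have 67.1% and 62.6% GC against a median of 49.6% over tested genes. For the 219 tested genes at least as GC-rich as *Junb*, the median log2 deviation from the group mean was -0.16 in control replicate 1 and 0.09 and 0.07 in replicates 2 and 3, and it was 0.15, 0.27 and -0.38 in senescent replicates 1 to 3. These genes had a median log2 fold change of -0.36, and of -0.0052 after a GC correction. The correction takes out any difference between libraries that follows GC content, whatever its source, so a median near 0 follows from its design. The correction brought *Jund* to -0.31 (edgeR adjusted p = 0.00189) and *Junb* to -0.17 (0.530). Without senescent replicate 3, *Jund* was at -0.53 (edgeR adjusted p = 0.00398) and *Junb* at -0.11 (0.567). Whether GC content accounts for the change of either gene was not tested.

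Senescent replicate 3 was the lowest senescent library for 7 of the 9 tested AP-1 genes, all but *Fos* and *Fosl2*. Control replicate 1 was the lowest control library for 8 of 9, all but *Atf3*. Senescent replicate 3 stood apart beyond these genes: over 14464 and 14773 genes, its median squared difference from replicates 1 and 2 was 24.8 and 33.0 times the counting error, while that between replicates 1 and 2 (14347 genes) was 2.33 times and that of control pairs 1.81 to 5.57 times. Results with and without senescent replicate 3 are shown in the plot of fold changes.

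An antisense gene, *Junos* (on the opposite strand to *Jun*), also rose, from 2.41 ± 0.319 to 7.98 ± 0.769 CPM (SD, n = 3), a log2 fold change of 1.72 (SE 0.13, edgeR adjusted p = 1.05e-05). The kit keeps strand, but the strand setting of the authors' counting is not given in the sources used here, so reads of *Jun* and *Junos* may not be fully separated. *Gm11175*, opposite *Jund*, had 4, 15 and 7 counts in control and 2, 4 and 0 in senescent libraries and was not tested.

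The Fos proteins differ in strength: c-Fos and FosB carry strong activation domains, while Fra-1 (*Fosl1*) and Fra-2 (*Fosl2*) lack them. *Fosl2* (ENSMUSG00000029135, chr5:32136472-32157831, plus strand) had the most reads of the 10 genes. It was 239, 240.6 and 241 CPM in control and 342, 357 and 353 CPM in senescent MAFs. The libraries of each group lay close together, with coefficients of variation of 0.456% and 2.20%, and the gap between groups was many times this spread (log2 fold change 0.55, SE 0.05, edgeR adjusted p = 3.08e-05).

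*Fosl1* (ENSMUSG00000024912, chr19:5447703-5455945, plus strand), known as a driver of migration and matrix-degrading genes, had the second largest change. Its levels were 19.9, 24.8 and 23.7 CPM in control and 94.3, 99.5 and 67.3 CPM in senescent MAFs. Even the lowest senescent library was well above the highest control. The level was 3.82-fold higher (log2 fold change 1.93, SE 0.16, edgeR adjusted p = 1.69e-05), and the log2 fold change was 2.10 without senescent replicate 3.

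*Fos* (ENSMUSG00000021250, chr12:85473890-85477273, plus strand), the prototype immediate early gene, went the other way. It was 9.40, 10.0 and 9.64 CPM in control and 5.05, 6.23 and 5.39 CPM in senescent MAFs. No senescent library reached the control range, and *Fos* was 1.74-fold lower (log2 fold change -0.80, SE 0.10, edgeR adjusted p = 2.00e-04). *Fosb* (ENSMUSG00000003545, chr7:19302721-19310045, minus strand) was scarce, at 1.62, 1.89 and 1.82 CPM in control and 2.87, 3.27 and 2.18 CPM in senescent MAFs. All 3 senescent libraries were above the controls, replicate 3 by the least. It was 1.55-fold higher (log2 fold change 0.64, SE 0.17, edgeR adjusted p = 0.0111).

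*Atf3* (ENSMUSG00000026628, chr1:191170296-191218039, minus strand) encodes a stress-induced protein of the ATF family, which can repress or activate according to its partner. Its counts were 37, 41 and 32 in control libraries and 587, 784 and 822 in senescent libraries, which is 0.742, 0.686 and 0.654 CPM against 10.6, 9.89 and 9.74 CPM. The senescent libraries agreed within a coefficient of variation of 4.50%, and none came near the controls. The log2 fold change was 3.86 (SE 0.11, edgeR adjusted p = 5.53e-08).

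*Jdp2* (ENSMUSG00000034271, chr12:85599105-85639878, plus strand) encodes a dimerization partner and repressor of Jun. It was 32.2, 35.7 and 39.2 CPM in control and 15.9, 17.1 and 11.5 CPM in senescent MAFs. No senescent library came close to the lowest control, and *Jdp2* was 2.41-fold lower on average (log2 fold change -1.27, SE 0.15, edgeR adjusted p = 1.52e-04). *Batf3* (ENSMUSG00000026630, chr1:191097847-191108945, plus strand), best known from dendritic cells, had 1, 5 and 2 counts in control and 4, 5 and 0 counts in senescent libraries. These are at or near the 3 counts that a count of 0 allows (0.0355 to 0.0613 CPM), and no difference was detectable at this depth. *Batf3* and *Atf3* lie on chromosome 1 and *Fos* and *Jdp2* on chromosome 12.

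**Figure D2:**
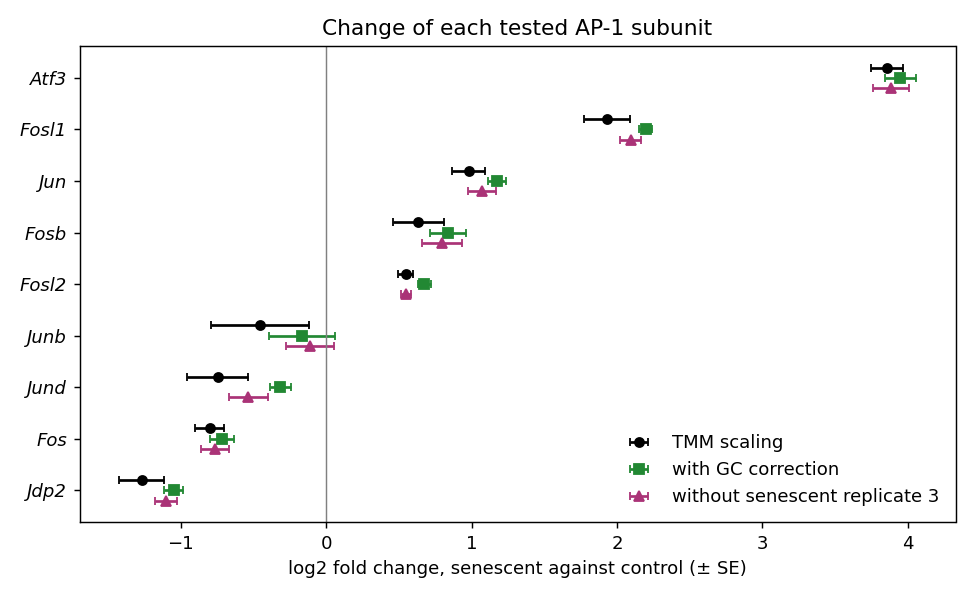
Log2 fold change of senescent against control MAFs (x axis, ± SE) for the 9 tested AP-1 genes, with TMM scaling (black), after the GC correction (green) and without senescent replicate 3 (magenta). *Atf3* (3.86) and *Fosl1* (1.93) are farthest to the right and *Jdp2* (-1.27) farthest to the left. *Junb*, *Jund*, *Jdp2* and *Fos* all move toward 0 under both changes.

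To compare genes with each other, levels were divided by exon length (CPM per kilobase). In control MAFs the order of mean level per kilobase was *Fosl2* (41.1), *Jdp2* (19.0), *Fosl1* (13.3), *Jun* (10.3), *Junb* (9.47), *Fos* (4.12), *Jund* (3.93), *Fosb* (0.474), *Atf3* (0.322) and *Batf3* (0.0302). *Jun* and *Junb* overlapped in their libraries, as did *Fos* and *Jund*, so these neighbours were not separated by their spread. In senescent MAFs the order became *Fosl2* (59.9), *Fosl1* (51.0), *Jun* (20.3), *Jdp2* (7.88), *Junb* (6.94), *Atf3* (4.68), *Fos* (2.36), *Jund* (2.35), *Fosb* (0.739) and *Batf3* (0.0282). *Fosl1* and *Jun* thus passed *Jdp2*, and *Atf3* passed *Fos*, *Jund* and *Fosb*. *Fosl2* and *Fosl1* did not overlap on these lengths (lowest *Fosl2* 58.5, highest *Fosl1* 58.3), but with exon lengths of GENCODE M21 *Fosl1* came first (42.8, against 36.3 for *Fosl2*), and its libraries (33.1 to 49.0) then overlapped those of *Fosl2* (35.4 to 36.9). The same lengths put *Jund* above *Fos* in both groups (6.77 against 4.12 in control and 4.05 against 2.36 in senescent MAFs) and *Atf3* above *Fosb* in control MAFs (0.322 against 0.285). The place of these genes in the order therefore depends on the annotated length.

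The mix within each family was compared as a percentage of the summed levels per kilobase. The sum over the Fos family was 59.0 ± 1.82 in control and 114 ± 10.4 CPM per kilobase in senescent MAFs, with a ratio of 1.93 (SD, n = 3; exact two-sided permutation p = 0.1, the smallest that 3 against 3 can give). *Fosl1* contributed 20.5%, 24.0% and 23.2% in control and 47.4%, 47.4% and 38.4% in senescent libraries, a gain of 21.8 percentage points (exact permutation p = 0.1), or of 11.1 points where counts were not divided by length. *Fosl2* went from 69.6% ± 1.90 to 52.9% ± 5.11 and *Fos* from 6.99% ± 0.101 to 2.08% ± 0.208, while *Fosb* stayed under 1% throughout, at 0.802% ± 0.0382 and 0.643% ± 0.0721 (exact permutation p = 0.1 for each, groups not overlapping). Without division by length the differences were -8.83 points for *Fosl2* and -2.29 points for *Fos*, against -16.8 and -4.91, and with GENCODE M21 lengths -7.29 points for *Fos*.

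In the Jun family the sum was 23.7 ± 3.55 in control and 29.5 ± 6.15 CPM per kilobase in senescent MAFs (ratio 1.25, exact permutation p = 0.3), and the libraries overlapped. *Jun* made up 46.2%, 42.6% and 42.1% of it in control and 64.8%, 65.6% and 78.0% in senescent libraries. *Junb* went from 39.8% ± 1.78 to 22.6% ± 6.83 and *Jund* from 16.6% ± 0.459 to 7.89% ± 0.601, a difference of -8.67 points, or of -14.0 points with GENCODE M21 lengths. No share overlapped between groups, and the exact permutation p was 0.1 for each of the 3 genes. The share of *Junb* was 26.8%, 26.3% and 14.7% in senescent replicates 1 to 3. Its difference was -17.2 points, or -13.3 points without senescent replicate 3. Shares were not computed with the GC correction. Benjamini-Hochberg adjustment over the shares of both families leaves these p-values as they are. The 7 shares are tied within each family, since they sum to 100%, and they follow transcripts, not proteins or dimers.

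**Figure D3:**
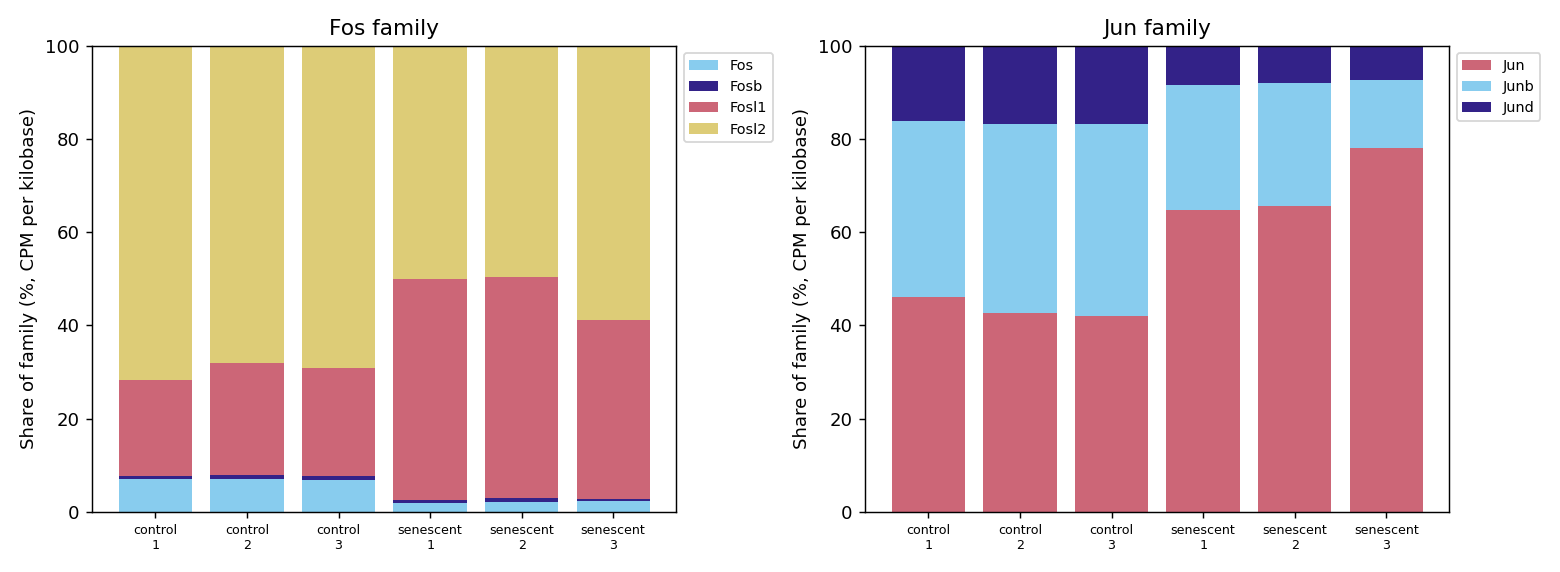
Share of each gene (y axis, % of the summed CPM per kilobase) in the Fos family (left) and the Jun family (right), with 1 stacked bar per library. *Fosl1* is 20.5% to 24.0% of the Fos family in control and 38.4% to 47.4% in senescent libraries. *Jun* is 42.1% to 46.2% of the Jun family in control and 64.8% to 78.0% in senescent libraries.

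Around these subunits, lists of genes of the pathway were counted in the same edgeR fit, against the background of 36.2% higher and 34.1% lower over all tested genes. Of 4 other AP-1 partners tested, *Creb5* rose (log2 fold change 1.98, SE 0.25, adjusted p = 1.87e-04), *Atf7* fell by 0.34 on the log2 scale (SE 0.08, adjusted p = 0.00390), and *Batf* (-0.54, adjusted p = 0.0514) and *Atf2* (0.060, adjusted p = 0.573) did not pass. The median log2 fold change of this list was -0.14. Of 23 genes of the JNK, ERK and p38 kinase cascade, which phosphorylates Jun and the factors that switch on *Fos*, 11 (47.8%) were higher and 6 (26.1%) lower, near the background, and the median was 0.067. The kinases *Map2k3* (0.81) and *Map2k1* (0.58) were among the higher ones, and *Rps6ka1* (-1.76) and *Mapk3* (-0.86), which encodes ERK1, among the lower.

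The phosphatases that switch MAP kinases off moved one way: 8 of 10 (80.0%) were higher and none was lower, with a median log2 fold change of 1.82. With at least 10 counts required in every library, 7 were higher and 0 lower. *Dusp4* rose by 3.80, *Dusp6* by 2.72, *Dusp5* by 2.30 and *Dusp1* by 1.96 (edgeR adjusted p from 4.08e-08 to 2.84e-07). Of 9 genes for the serum response factor, its partners and CREB-type activators of *Fos*, 3 (33.3%) passed as higher and 2 (22.2%) as lower, and the median was 0.020. *Crem* (0.80), *Elk3* (0.33) and *Srf* (0.42) were the higher ones and *Elk1* (-0.39) a lower one. The call of *Srf* (edgeR adjusted p = 0.0215) was lost without any 1 of the 5 libraries other than senescent replicate 3 (0.0515 to 0.0790). Of 15 regulators of Jun and Fos proteins, 5 (33.3%) passed as higher and 2 (13.3%) as lower, and the median was 0.098. *Trib1* (1.33), *Fbxw7* (0.68), which targets c-Jun for degradation, and *Csnk2a2* (0.50) rose, and *Men1* (-0.95), whose product menin binds JunD, fell.

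Genes known as AP-1 targets were higher with 1 exception. Of 28 tested, 27 (96.4%) were higher and 1, the collagen gene *Col1a2*, which is also among the fibroblast markers, was lower, with a median log2 fold change of 2.73. Targets with few counts in control could pass the filter through the senescent libraries alone, which favours calls as higher. With at least 10 counts required in every library, 21 were higher and 1 lower. The growth factor *Hbegf* rose from 18.0 ± 0.434 to 390.6 ± 22.7 CPM (SD, n = 3), a log2 fold change of 4.44, *Mmp3* by 5.51, *Lif* by 6.03 and *Serpinb2* by 10.24 (edgeR adjusted p from 1.02e-08 to 2.03e-08). *Serpinb2* had only 3, 7 and 3 counts in control libraries, against 5229, 7178 and 10060 in senescent libraries. Its control level is near the limit of detection, so the size of its fold change is uncertain. Of 19 other immediate early genes, 16 (84.2%) were higher and 1, *Klf2*, lower, with a median of 1.20. *Maff* (4.37), *Nr4a3* (3.21), *Klf4* (1.54) and *Cyr61* (1.51) are examples, in contrast to *Fos* (-0.80). Of 8 arrest and proliferation genes 3 were higher and 5 lower (median -4.37): *Ccna2* (-5.37), *Ccnb1* (-5.18) and *Lmnb1* (-3.55) fell, and *Cdkn2a* rose (1.90). These lists were chosen with results of these data known, and they were not tested as sets.

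**Figure D4:**
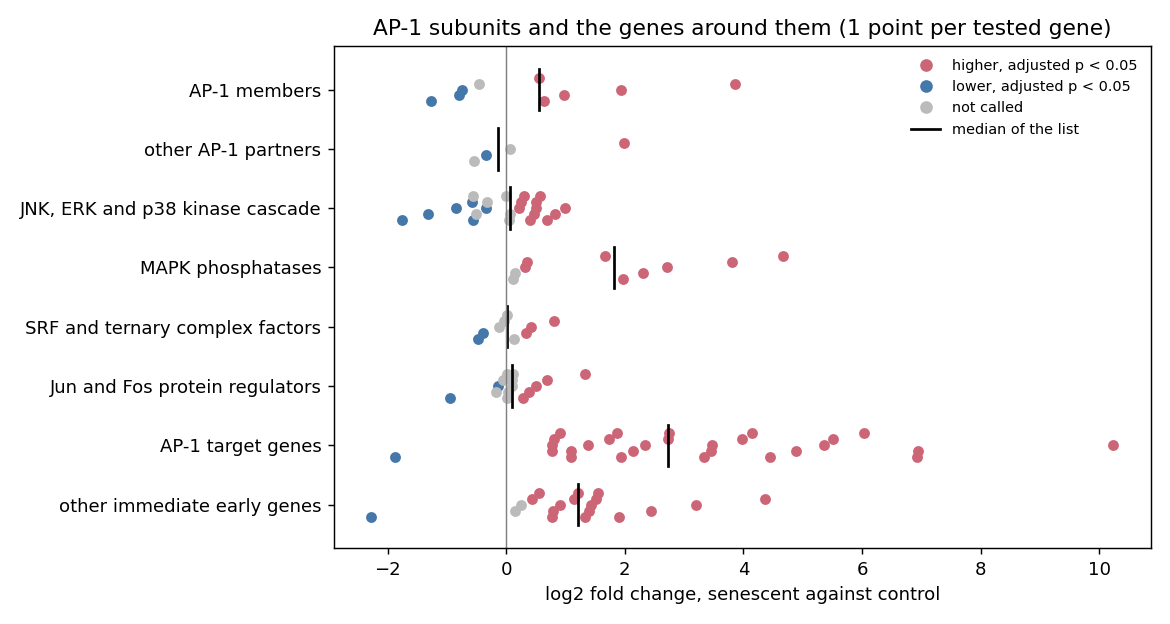
Log2 fold change of senescent against control MAFs (x axis) for each tested gene of the AP-1 group and the 7 lists around it, with 1 point per gene, red for higher and blue for lower at an adjusted p under 0.05, grey for not called, and a bar for the median. The medians of the MAPK phosphatases (1.82) and AP-1 target genes (2.73) lie to the right of the AP-1 group (0.55).

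For the tested genes other than *Jdp2*, the most similar profile is given from 12949 other genes with a mean count of at least 100, by Pearson's r of log2 CPM over the 6 libraries. The nearest were *Hebp2* for *Jun* (r = 0.999), *Coa3* for *Jund* (0.998), *Gal3st2* for *Fos* (0.997) and *Ndufa11*, *Dhx37*, *Arc*, *Dpyd* and *Amotl1* for *Junb*, *Fosb*, *Fosl1*, *Fosl2* and *Atf3*. Between 37 (*Fosb*) and 1171 genes (*Atf3*) had an r over 0.99. With 3 libraries in each of 2 groups, a high r mainly says that a gene differed between the groups, followed the same libraries, or both. *Junb* and *Ndufa11* were not called (edgeR adjusted p = 0.259 and 0.227) and overlapped between groups, so their r mainly says that they followed the same libraries.

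Markers of other cell types moved with the groups too. Most fibroblast markers were abundant in all libraries (*Fn1* at 45637 ± 414 and 43841 ± 2275 CPM), but *Fap* was scarce (0.491 and 7.58 CPM on average). Of 12, 5 were higher, 5 lower and 2 not called. Mean levels in control and senescent MAFs were 4433 and 763 CPM for *Col1a1* and 56.6 and 642 CPM for *Dcn*. Chondrocyte markers summed to 4996 to 5558 CPM in control and 359 to 445 CPM in senescent libraries, and all 8 tested were lower, *Col2a1* by a log2 fold change of -4.02. Macrophage markers were low, at 8.72 to 9.34 and 19.0 to 22.0 CPM, with 6 of 7 tested higher and a median log2 fold change of 0.97, among them *Cd68* (0.38), *Ptprc* (2.95), *Lyz2* (4.18) and *Itgam* (0.0068 and 0.504 CPM on average), and with *Tyrobp* and *C1qa* at no more than 3 counts in every library. Endothelium markers were 2.55 to 2.96 and 8.30 to 8.85 CPM, with all 5 tested higher and a median of 2.25, from *Tek* (0.71) to *Kdr* (3.81), and *Tie1* at no more than 3 counts. *Kdr* was 0.206 CPM in control and 2.92 CPM in senescent MAFs on average. Genes this scarce in control, as also *Itgam*, can pass the filter through the senescent libraries alone, which favours calls as higher. Keratinocyte markers were 30.7 to 32.3 and 83.7 to 96.3 CPM, mostly through *Perp* (2.29), a p53 target, with 3 higher and 1 lower of 6 tested and *Dsg3* at no more than 3 counts. Muscle markers were 15.6 to 20.9 and 15.5 to 28.1 CPM, mostly *Acta1* (0.21, not called; 2 of 3 tested higher, *Myf5* at no more than 3 counts), and Schwann cell and melanocyte markers were 9.25 to 10.8 and 14.8 to 15.9 CPM, with *Mitf* the most abundant (5.51 ± 0.780 and 8.45 ± 0.803 CPM) and *Ngfr* at 0.0068 and 3.51 CPM on average (2 higher and 2 lower of 5 tested, *Dct* and *Tyr* at no more than 3 counts). Their part in the AP-1 results was not tested.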

How the data were processed

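Read pairs were aligned by the authors with STAR (MAPRSeq pipeline, mm10) and assigned to genes with Subread, and raw counts of 6 libraries were deposited in 1 table. The strand setting and the handling of reads mapping to several places are not given in the sources used here. Genes were kept by filterByExpr, scaled by TMM and tested with the robust quasi-likelihood fit of edgeR 4.0.16 (R 4.3.3), two-sided, with Benjamini-Hochberg adjustment over all 17589 tested genes. Levels are CPM computed here, per kilobase of the length column of the table. Shares were compared by exact permutation tests. Reads carry no molecular identifiers, so limits on low counts cover counting error alone.

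Alternatives were RLE scaling, library size alone, no filter, a minimum of 10 counts per library, DESeq2 1.42.0, the exact test of edgeR, a replicate block, a GC correction, both together, protein-coding genes alone, an unadjusted threshold with a fold change over 2, and each library left out. Lengths of GENCODE M21 and the search for TGACGT were added after seeing the data. The genes and lists were chosen with earlier results of these data known. Named are all 10 AP-1 genes, up to 4 genes with the smallest p of each pathway list, the most similar gene of each (1 is not reported here), the most abundant marker of each cell type, *Cdkn1a*, *Cdkn2a* and *Mki67*. *Col1a1*, *Col1a2*, *Dcn*, *Fap*, *Klf2*, *Junos*, *Gm11175*, *Tyrobp*, *C1qa*, *Ptprc*, *Lyz2*, *Itgam*, *Kdr*, *Ngfr*, *Tie1*, *Dsg3*, *Myf5*, *Dct* and *Tyr* were named after their values were seen. A planned comparison of the proteins was not run.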

Additional observations from a re-analysis of the deposited data

How the results depend on the processing

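At an adjusted p under 0.05, 143 of 144 comparisons of the 9 tested AP-1 genes with 16 alternatives kept the direction and the call, and the exception was *Jund* without control replicate 2 (-0.66, adjusted p = 0.0507). Under the threshold with a fold change over 2, counted apart, 5 AP-1 genes lost the call: *Jun*, *Jund*, *Fos*, *Fosb* and *Fosl2*, as did 18 other named genes. Log2 fold changes ranged from 3.81 to 3.95 for *Atf3*, 1.83 to 2.20 for *Fosl1*, 0.88 to 1.18 for *Jun*, -1.38 to -1.05 for *Jdp2*, -0.90 to -0.31 for *Jund* and -0.72 to -0.11 for *Junb*. Of 799 such comparisons for other named genes, 775 kept direction and call, 13 lost it and 5 gained it, and 6 changed sign: *Atf2* (0.060) was at -0.16 with the GC correction, at -0.16 with the replicate block and GC correction and at -0.033 without senescent replicate 3 (-0.033 to 0.12 with a library left out), and *Fn1* (-0.058) at 0.079 with the GC correction, at 0.079 with the replicate block and GC correction and at 0.019 with library size alone. The cause was not tested.

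Libraries with the same replicate number correlated at -0.15, 0.14 and -0.12 in their deviations from the group means. With 3 libraries per group and senescent replicate 3 far from the others, these values cannot tell whether the numbers pair the samples. With the replicate block, 5964 tested genes were higher and 5660 lower, against 6360 and 6005, and no AP-1 call changed (*Junb* -0.54, *Jund* -0.76).

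Several counts moved by over 1.5 times. Regulators of Jun and Fos proteins that were lower (2) were 1 with RLE scaling, library size alone, no filter, at least 10 counts, the exact test, DESeq2 and the replicate block, 4 with the GC correction, and 1 to 3 with a library left out. Lower genes of the serum response factor list (2) were 1 with library size alone, no filter and at least 10 counts, and 1 to 3 with a library left out. Lower AP-1 partners (1) were 2 with the exact test, the GC correction, the replicate block with GC correction and protein-coding genes alone, and 1 to 2 with a library left out. Where the limits were a fold change over 2 and p under 0.05 before adjustment, 2 AP-1 genes were higher and 1 lower, and 3134 tested genes were higher and 2166 lower. That threshold left 0 higher and 2 lower kinase cascade genes, 0 and 0 of the serum response factor list, 1 and 0 regulators, and 0 lower partners.

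Shares moved with length: without division by length the differences were -2.29 points for *Fos*, -0.029 for *Fosb*, 11.1 for *Fosl1*, -8.83 for *Fosl2* and -10.4 for *Jund*, and with GENCODE M21 lengths -7.29 for *Fos* and -14.0 for *Jund*. Within the 150 bases nearest the start, 0 windows held an E-box and 1 a TATAAA. The 3 libraries per group and 1 time point limit what can be said of genes as scarce as *Batf3*.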
